A study of Rattus norvegicus with 13 samples.

Results

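Rat articular chondrocytes that received interleukin-1β (IL-1β) alone were compared with untreated chondrocytes over all probe sets of the array, with the genes of cytokines, proteases and cartilage matrix set aside so that the rest of the response could be described. The arrays were chosen by their titles, 4 of IL-1β cultures (replicates a to d) and 3 of untreated cultures (replicates a to c), which makes 7 of the 13 arrays in the series. All cells came from the femoral head cartilage of male Wistar rats aged 2 months, were grown in Dulbecco's medium with serum, and were used at second passage. They were pooled before seeding, so each array is 1 flask of 1 pool of cells, p-values measure the spread between flasks, and no group holds cells of separate animals. IL-1β cultures received 10 ng/ml IL-1β for 14 hours, and untreated cultures received neither agent. The other groups were cultures kept in 20 mM glucosamine for 20 hours (n = 2) and cultures given glucosamine for 6 hours and then IL-1β for 14 hours (n = 4). These arrays shared the fit, and glucosamine alone served as a direct comparison, whereas the group with both agents is not described.

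IL-1β binds the receptor IL1R1, which recruits the adaptor MyD88 and IRAK kinases and activates NF-κB and the MAP kinases. Both routes switch on genes whose products shut them down again, such as the ubiquitin-editing enzyme A20 and the MAP kinase phosphatases. Chondrocytes exposed to IL-1β are known for making nitric oxide and prostaglandin E2 and for turning from matrix synthesis to matrix breakdown, as cartilage cells do in arthritic joints.

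Signals are the deposited linear intensities, given per array as deposited, and tests were run on log2 signals, after values under 5.71 (25th percentile over the table) had been raised to it. A gene is represented by its probe set with the highest mean signal, fold changes are ratios of geometric means of floored signals, and a gene is called higher or lower at a Benjamini-Hochberg adjusted p under 0.05 by limma, adjusted over all tested probe sets. Where the lower group was at or under this floor on all its arrays, only a bound is known, and the fold is given as "at least" (a log2 fold change printed beside it is then a bound too). Where it was so on only some arrays, the fold is that of the floored signals. The array of IL-1β replicate d spread wider among dim probe sets: the 1st percentile of its signals was -31.0 against -6.47 to -4.81 on 11 of the other arrays, and 25519 of its probe sets were above the floor against 22830 to 23489 on the other 6 arrays of the comparison. In such cultures, fewer cells of a type and less RNA per cell cannot be told apart.

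Chondrocyte markers were detected in both groups, and all 16 tested were above the floor on at least 1 array of each. Among the markers of chondrocytes, Col2a1 (type II collagen) was at 3819 ± 346 (SD, n = 3) on untreated and 2812 ± 295 (n = 4) on IL-1β arrays by its brightest probe set (log2 fold change -0.44), and its other probe sets had log2 fold changes of -1.17 and -4.21. In all, 10 of 16 markers tested were lower with IL-1β, none higher. The summed signal of these markers was between 14022 and 15653 on untreated and between 8703 and 10279 on IL-1β arrays. Of 18 leukocyte and macrophage markers, 2 were higher, Cd68 and Cd14, and the summed signal was 385 to 399.8 on untreated and 729.9 to 1073 on IL-1β arrays. Of these markers, 10 were above the floor on at least 1 untreated array and 17 on at least 1 IL-1β array. Their median log2 fold change was 0.47, against 0.09 over all tested genes. In IL-1β cultures Ptprc (CD45) was at 8.18 ± 1.24, Itgam at 1.41 ± 2.38 and Csf1r at 10.8 ± 13.4 (n = 4). Csf1r was at 30.6 on replicate d and at most 6.70 on the others. Of 13 endothelial markers, 3 were higher and 1 lower (summed signal 239.8 to 294.5 untreated and 257 to 519 with IL-1β, the highest on replicate d), and of 13 fibroblast markers 3 were higher and 5 lower (17039 to 19342 and 16679 to 20029). Of 9 osteoblast and osteoclast markers, 2 were lower (591 to 623 and 457 to 536), and of 17 muscle, adipose and neural markers 3 were higher and 2 lower (319 to 371 and 825 to 1605). Their part in the results was not tested.

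IL-1β changed the RNA of 7067 of 29263 tested probe sets (24.1%), 3260 upward and 3807 downward. Most changes were moderate, with a median log2 fold change of 0.91 among probe sets that rose and -0.80 among those that fell, yet 375 rose and 202 fell at least 5-fold, and 65 rose and 13 fell at least 20-fold. The share called rose with the signal, from 5.22% of probe sets in the lowest of 4 signal classes to 44.0% in the highest. Counted by gene, 4237 of 13748 were called (30.8%), 2137 higher (15.5%) and 2100 lower (15.3%), with a median log2 fold change of 0.09 over all tested genes. Of the called genes, 117 were cytokines, chemokines, proteases, inhibitors or matrix genes on the lists set aside, and 811 were in 1 or more of 44 lists of other processes. The kinds of list overlap, and 3304 called genes were on no list of any kind, marker lists included. Among the 20 largest rises of all genes, 13 belonged to the lists set aside, but among the 20 largest falls only 2 did.

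**Figure D1:**
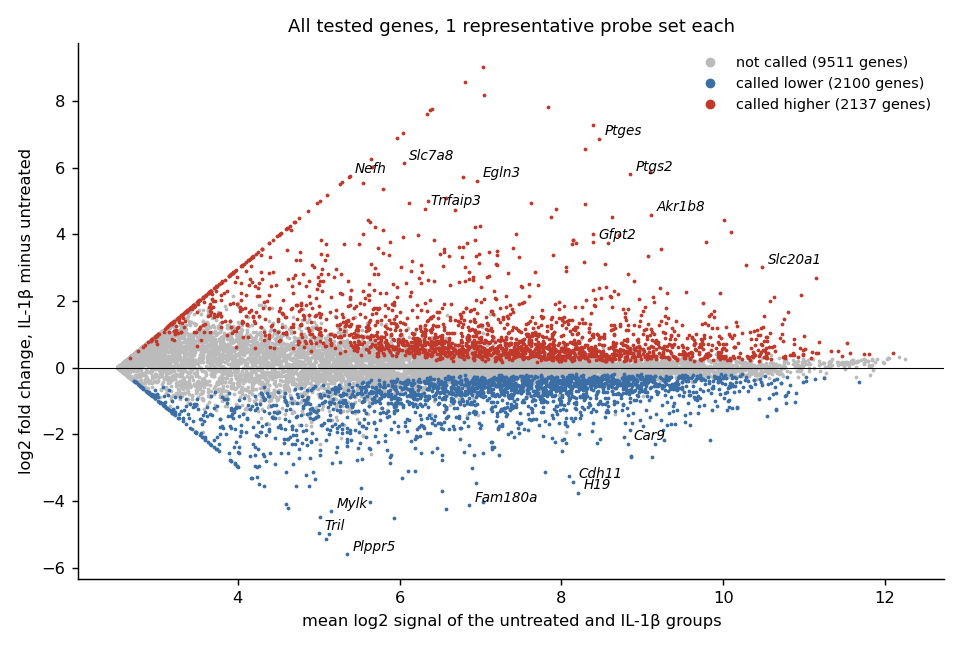
Log2 fold change of each tested gene (vertical axis, IL-1β minus untreated) against the mean log2 signal of the 2 groups (horizontal axis), with genes called higher in red, called lower in blue and not called in grey. The straight edges at the left are genes at the floor in 1 group. Ptges and Ptgs2 stand toward the upper right, and Plppr5 at the lower edge.

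Groups of genes moved together in several directions. Members called higher made up more than 40% of the lists of NF-κB and IL-1 receptor signaling (31 of 52), MAP kinase phosphatases (18 of 33), immediate early factors (17 of 30), antigen presentation (12 of 24), NRF2 targets (22 of 45), iron transport (8 of 17) and ribosome biogenesis (19 of 47). Members called lower made up more than 40% of the lists of endoplasmic reticulum (ER) and vesicle transport (21 of 44) and of contractile genes (22 of 49). Without IL-1β replicate d these counts were, in the same order, 30, 17, 17, 10, 22, 7, 20, 20 and 23. Over the 19 alternatives judged gene by gene, the lowest counts were, in that order, 28, 14, 15, 8, 21, 7, 12, 15 and 19. Set against the same totals, those of antigen presentation, ribosome biogenesis, ER transport and contractile genes were under 40%. In the list of mitosis genes 2 of 47 were higher and 4 lower, and of 42 ribosomal proteins 1 was higher. In the other lists neither share passed 40%, but some lay well off the shares of all tested genes, 15.5% higher and 15.3% lower. Members of the TGF-β family (39.2% higher and 29.4% lower) and skeletal transcription factors (21.2% and 38.5%) were among these. Nearer the shares of all genes were genes of the interferon response (16.3% and 10.2%) and of cholesterol (22.2% and 19.4%). G-protein-coupled receptor genes (20.6% and 19.05%) and ion channels (19.05% and 22.2%) were others. Whether a list differed from the shares of all genes was not tested.

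**Figure D2:**
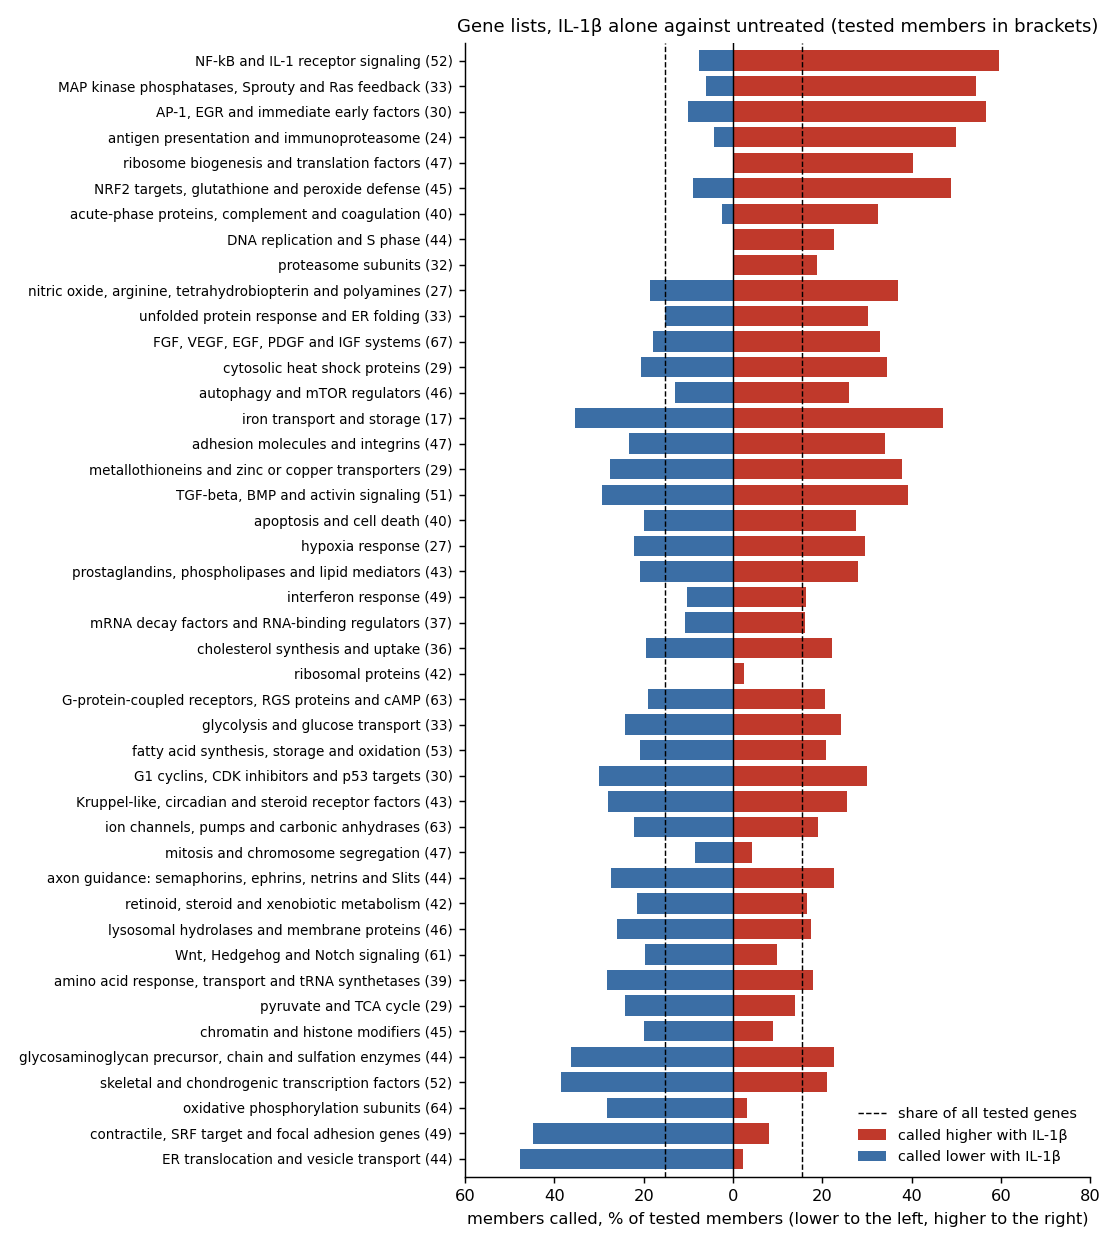
Share of tested members called higher (red, to the right) and lower (blue, to the left) with IL-1β in each of the 44 process lists, in % of the members tested, whose number stands in brackets. Dashed lines mark the shares of all tested genes, 15.5% higher and 15.3% lower. NF-κB signaling lies at the top, and ER transport and contractile genes at the bottom.

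Genes of NF-κB and IL-1 receptor signaling rose from the receptor to the NF-κB subunits and their inhibitors. Of 52 members tested, 31 rose and 4 fell, with a median log2 fold change of 0.73. Tnfaip3, which encodes the NF-κB inhibitor A20, had signals of 13.1, 17.5 and 15.5 on untreated and 444, 508, 289 and 459.6 on IL-1β arrays. The groups were far apart, and Tnfaip3 rose 27.3-fold (4.77 ± 0.32 on the log2 scale, with its standard error, adjusted p = 5.0e-07). Nfkb2, the precursor of the NF-κB subunit p52, rose 6.66-fold, its partner Relb 5.88-fold and the nuclear IκB protein Bcl3 2.69-fold. At the receptor, Il1r1 rose 2.89-fold (adjusted p = 1.9e-05) and the IRAK inhibitor Irak3 rose 5.38-fold (adjusted p = 1.9e-08), whereas the adaptor Myd88 had a log2 fold change of -0.23 (adjusted p = 0.054). Further large rises were those of the pattern receptor Tlr2 (15.8-fold), the kinase Map3k8 that links NF-κB to ERK (12.1-fold), and the ubiquitin ligase Birc3 (11.9-fold).

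Promoter sequences were read from RefSeq (GRCr8) for the 300 bases from 250 before to 50 after the start of each gene, and were found for 10599 of the 13748 tested genes. A κB-like motif of the kind that NF-κB dimers bind, GGG and TTTCC with any 2 bases between them, was searched on both strands. It was held by 12 of the 164 promoters of genes that rose at least 5-fold (7.32%), by 183 of the 10599 promoters of tested genes (1.73%), by 362 of the 24206 promoters in the table, and by none of the 73 promoters of genes that fell at least 5-fold. Among the NF-κB genes that rose, 7 of 24 promoters held it. An interferon-type motif, TTTC repeated after any 2 bases, was held by 6.10% and 2.95% of the promoters of genes that rose at least 5-fold and of tested genes, CCAAT by 39.6% and 37.4%, and TTTGAA by 7.32% and 12.2%. These matches are a description of the windows, with no test, and do not show binding. The promoters below belong to some of the genes that are named for their rise and hold the motif, which is in capitals. Tnfaip3 holds it 67 and 55 bases before its start, Nfkb2 20, Dusp5 90, Pla2g2a 190 and Upp1 150 bases before. Those of Steap4, Tap1 and B2m, which also rose, hold it too and are not shown.
Tnfaip3 (chr1:15543930-15544229, minus strand): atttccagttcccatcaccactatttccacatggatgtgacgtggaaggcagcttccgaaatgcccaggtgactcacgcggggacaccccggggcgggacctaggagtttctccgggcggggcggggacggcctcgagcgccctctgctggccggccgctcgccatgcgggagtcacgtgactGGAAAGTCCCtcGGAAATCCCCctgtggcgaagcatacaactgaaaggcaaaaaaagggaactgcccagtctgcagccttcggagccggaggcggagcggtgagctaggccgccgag
Nfkb2 (chr1:255108124-255108423, plus strand): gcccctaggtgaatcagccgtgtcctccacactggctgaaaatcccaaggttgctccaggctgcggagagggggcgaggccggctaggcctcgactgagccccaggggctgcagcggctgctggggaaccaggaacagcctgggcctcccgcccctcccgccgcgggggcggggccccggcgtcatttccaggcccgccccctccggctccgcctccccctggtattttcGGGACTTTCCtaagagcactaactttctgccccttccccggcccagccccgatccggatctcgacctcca
Dusp5 (chr1:262543524-262543823, plus strand): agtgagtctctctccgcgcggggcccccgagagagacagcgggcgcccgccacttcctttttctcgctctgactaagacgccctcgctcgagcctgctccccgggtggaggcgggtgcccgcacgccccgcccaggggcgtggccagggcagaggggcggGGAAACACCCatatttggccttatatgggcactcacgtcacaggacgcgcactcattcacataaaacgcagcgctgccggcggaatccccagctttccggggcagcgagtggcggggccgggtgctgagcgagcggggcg
Pla2g2a (chr5:156359475-156359774, plus strand): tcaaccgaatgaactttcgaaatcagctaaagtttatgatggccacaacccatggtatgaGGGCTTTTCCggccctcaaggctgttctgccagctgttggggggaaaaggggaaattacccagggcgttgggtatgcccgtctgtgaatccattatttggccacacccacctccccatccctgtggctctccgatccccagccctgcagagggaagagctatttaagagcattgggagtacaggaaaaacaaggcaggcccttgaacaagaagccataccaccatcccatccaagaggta
Upp1 (chr14:88024420-88024719, plus strand): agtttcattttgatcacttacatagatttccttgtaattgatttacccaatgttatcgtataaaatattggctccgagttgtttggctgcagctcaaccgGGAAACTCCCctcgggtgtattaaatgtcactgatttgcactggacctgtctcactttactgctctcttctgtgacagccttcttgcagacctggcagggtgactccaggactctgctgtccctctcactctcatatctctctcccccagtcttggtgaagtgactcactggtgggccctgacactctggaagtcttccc

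Many phosphatases that switch off MAP kinases rose, and so did many transcription factors at the end of that route. Of 33 phosphatase, Sprouty and Ras feedback genes, 18 rose and 2 fell. Dusp5, a nuclear phosphatase of ERK whose promoter is shown above, had signals of 23.4, 15.4 and 18.6 untreated and 308, 286, 339.9 and 267 with IL-1β. It rose 15.9-fold (3.99 ± 0.16 on the log2 scale, with its standard error, adjusted p = 7.8e-09). The EGF receptor inhibitor Errfi1 rose 5.55-fold, the ERK phosphatase Dusp6 3.63-fold, Dusp10 4.51-fold and Dusp2 at least 5.24-fold. Dusp1, the phosphatase that restrains p38, rose 1.59-fold, and Spry2 rose 1.39-fold, a call that was lost in 5 of the 7 fits that left out 1 array of the comparison (IL-1β b or d, or any untreated array). Dusp14 was called lower (5.45-fold) but also lost its call in 6 of those fits, and its log2 fold change was -1.82 without IL-1β replicate d.

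Among the AP-1, EGR and other immediate early factors, 17 of 30 rose and 3 fell. Fosl1 (Fra-1) had signals of 37.3, 40.4 and 37.8 on untreated and 468, 359.7, 458 and 303 on IL-1β arrays and rose 10.2-fold (adjusted p = 3.5e-08). Fos itself went the other way by its representative probe set. Its signals were 55.4, 52 and 49.98 untreated and -0.135, 17.7, 6.41 and 21.3 with IL-1β, 4.83-fold lower (adjusted p = 0.0021). The groups did not overlap for either gene. The other probe set of Fos was not called (0.94 on the log2 scale, adjusted p = 0.41). Large rises were also those of the small Maf protein Maff (11.1-fold), Egr2 (10.7-fold) and Atf3 (10.6-fold), and smaller ones those of Ier3 (3.96-fold), Junb (2.87-fold), Egr1 (1.97-fold), Cebpb (1.84-fold) and Jun (1.49-fold, not called without untreated replicate c). Cebpd by its representative probe set was not called (-0.52 on the log2 scale, adjusted p = 0.089), although another of its probe sets was called lower at -1.56, and neither was Nr4a2 (0.35, adjusted p = 0.51). Without IL-1β replicate d, the representative probe set of Cebpd was called lower, at -0.66. Of 37 mRNA decay factors and RNA-binding regulators, 6 rose and 4 fell. Zc3h12a, the RNase regnase-1 that degrades cytokine mRNA, rose 14.3-fold from 81.5, 61.5 and 82.4 to 1083, 1023, 1054 and 1102, while the AU-rich element binder Zfp36 had a log2 fold change of 0.28 (adjusted p = 0.40). Igf2bp2 (2.89-fold), N4bp1 (2.68-fold) and the antiproliferative Btg1 (1.91-fold) rose, and Mex3a fell 2.05-fold.

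The inducible enzymes of prostaglandin E2 synthesis, Ptgs2 and Ptges, rose, and Hpgd, which degrades it, fell. Ptges, the inducible prostaglandin E synthase, had signals of 30.1, 34.4 and 33.8 on untreated and 4088, 3387, 3586 and 4323 on IL-1β arrays and rose 117-fold (6.87 ± 0.46 on the log2 scale, with its standard error, adjusted p = 5.1e-07). Ptgs2, the inducible cyclooxygenase COX-2, went from 59.2, 59.99 and 66.5 to 3479, 3007, 2987 and 4503, 55.7-fold higher (adjusted p = 9.6e-09). The groups were far apart for both genes, with no overlap. Pla2g2a, a secreted phospholipase A2, rose 11.8-fold from 185, 165 and 176 to 1921, 1832, 2223 and 2367, whereas the constitutive cyclooxygenase Ptgs1 had a log2 fold change of 0.06 (standard error 0.11, adjusted p = 0.73). Hpgd fell 31.7-fold to values near the floor. Smpd3, a neutral sphingomyelinase that cartilage and bone express, fell from 93.6, 99.5 and 97.7 to 21.8, 14.8, 13.3 and 7.42 (7.25-fold, adjusted p = 1.4e-04). In the whole list of 43 genes of prostaglandins, phospholipases and lipid mediators, 12 rose (7 without untreated replicate b) and 9 fell.

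**Figure D3:**
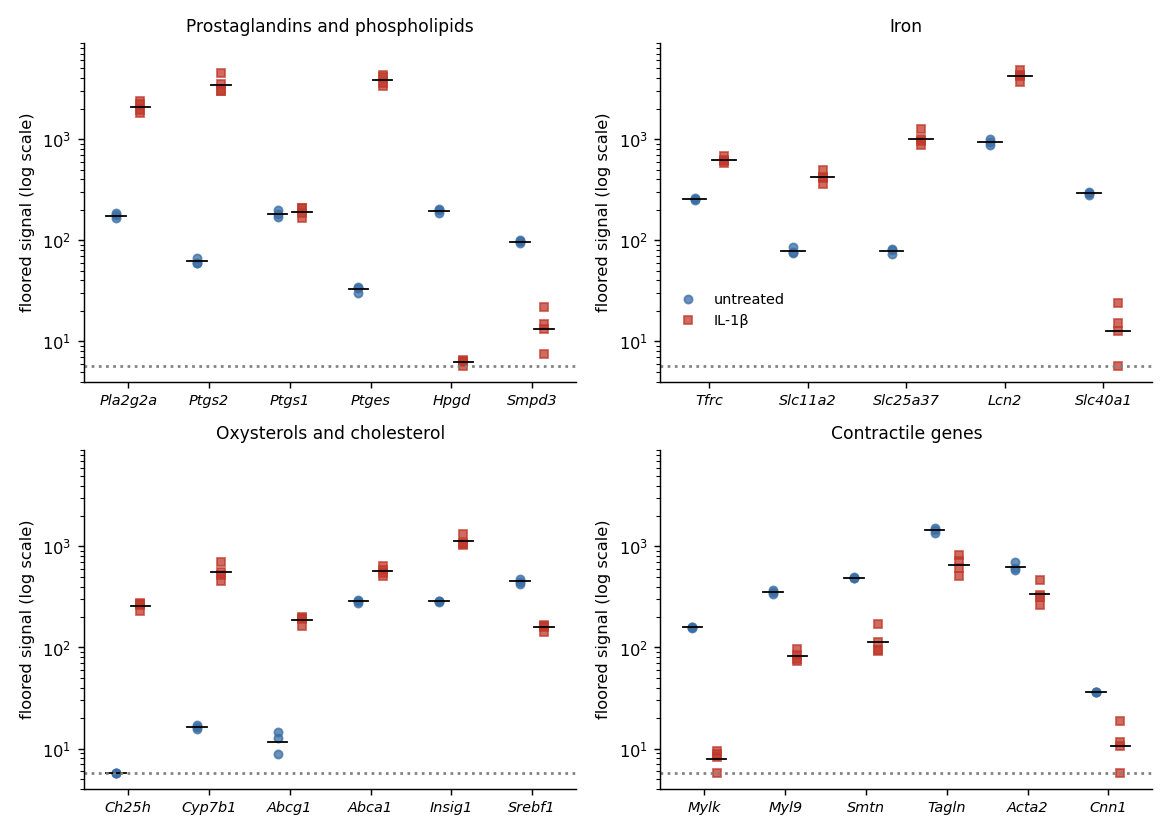
Floored signal of named genes on each untreated (blue circles) and IL-1β array (red squares), on a log axis, with the geometric mean of each group as a black bar and the floor of 5.71 as a dotted line. Ptgs2 and Ptges rise while Ptgs1 stays level, the iron importers Tfrc and Slc11a2 rise and the exporter Slc40a1 falls, and all 6 contractile genes shown are lower with IL-1β.

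Several steps that supply nitric oxide synthesis rose as well. Of 27 genes of nitric oxide, arginine, tetrahydrobiopterin and polyamine metabolism, 10 rose and 5 fell. The arginine-synthesis enzyme Ass1 led the 20 largest rises outside the lists set aside. It rose 289-fold (8.18 ± 0.44 on the log2 scale, with its standard error, adjusted p = 7.7e-08). Its signals were 0.773, 8.87 and 9.22 on untreated arrays, the first under the floor, and 2180, 2092, 2276 and 2440 on IL-1β arrays. Gch1, the rate-limiting enzyme for the cofactor tetrahydrobiopterin, had signals of 34.1, 28.6 and 28.97 untreated and 306, 321, 297 and 320.5 with IL-1β, 10.2-fold higher (3.35 ± 0.10 on the log2 scale, with its standard error, adjusted p = 6.9e-10). The arginine importer Slc7a2 rose 5.03-fold, and spermine oxidase Smox 4.396-fold. Arginase 1 (Arg1), which competes for arginine, was at or under the floor on all untreated arrays and between 20.3 and 26.8 on IL-1β arrays, at least 3.905-fold higher. Odc1, which starts polyamine synthesis, was 1.31-fold higher, a call that was lost without any 1 of IL-1β replicates a to c or of the untreated arrays. The polyamine acetylase Sat1 had a log2 fold change of 0.26 (adjusted p = 0.058), and without IL-1β replicate d it was called higher, at 0.31.

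Outside these routes, the 20 largest rises held genes of many functions. Slc7a8, a transporter of neutral amino acids, had signals of 7.76, 6.36 and 10.1 on untreated and 655, 513, 484 and 591 on IL-1β arrays, a 70.2-fold rise (6.13 ± 0.25 on the log2 scale, with its standard error, adjusted p = 1.0e-08). Egln3, an oxygen-sensing prolyl hydroxylase, went from 20.1, 15.3 and 18.4 to 844, 766, 936 and 919, 48.5-fold higher (adjusted p = 4.1e-11). No IL-1β array came near the untreated arrays for either gene. Fabp4, a fatty acid carrier best known from adipocytes and macrophages and counted above among the adipose markers, rose 52.7-fold from 14.1, 14.6 and 17.04 to 570.5, 843, 852 and 1004. The uridine phosphorylase Upp1 rose 26.7-fold, the crosslinking enzyme transglutaminase 2 (Tgm2) 30.6-fold, the secreted proteoglycan endocan (Esm1) 26.9-fold and the ubiquitin ligase Neurl3 40.8-fold. Ddit4l, an inhibitor of mTOR signaling, rose 30.9-fold from 12.7, 14.8 and 10.4 to 425, 378, 371 and 373.

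Other large rises started at or near the floor. They were Gdf15, a stress-induced member of the TGF-β family (65.4-fold), the neurofilament heavy chain Nefh (at least 52.7-fold), the calmodulin-binding peptide Pcp4 (47-fold), the tight junction protein Cldn6 (at least 35.9-fold), the lysosomal glycoprotein Cd68 (at least 32.2-fold) and the small GTPase Rem2 (at least 26.2-fold). Cd68 was at -13.8, -13.8 and -18.1 on untreated arrays and 219, 189, 211 and 132 on IL-1β arrays, with the lowest of the 4 on replicate d, and also counts among the macrophage markers described above. Rem2 was at 110.4, 109, 128 and 326 on IL-1β arrays, with the highest value on replicate d.

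**Figure D4:**
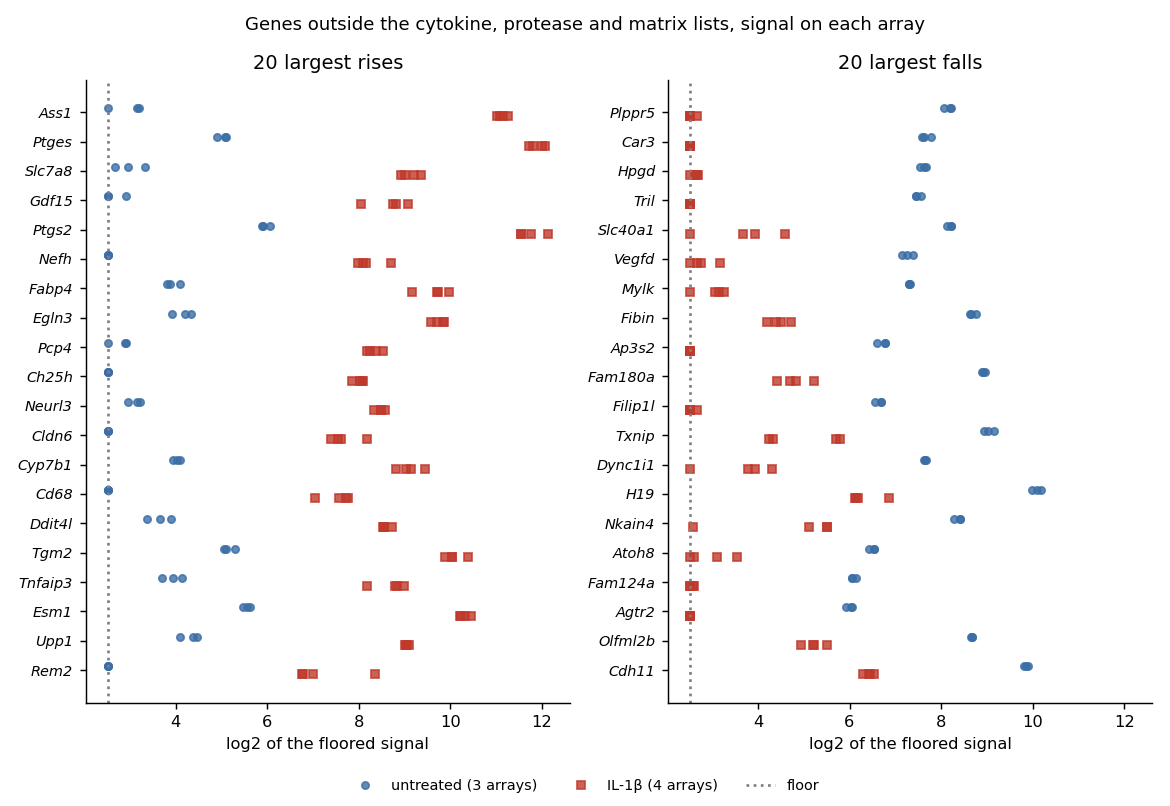
Log2 of the floored signal on each untreated (blue circles) and IL-1β array (red squares) for the 20 largest rises (left) and 20 largest falls (right) among genes outside the cytokine, protease and matrix lists; the dotted line is the floor. No gene shown has overlapping groups, and many of the lower values lie on the floor.

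The largest falls were those of membrane, cytoskeletal and developmental genes. Plppr5, a brain-enriched phosphatase-related membrane protein, had signals of 293, 267 and 296 on untreated and 1.59, 3.68, 6.34 and 5.56 on IL-1β arrays, 48.6-fold lower (-5.60 ± 0.14 on the log2 scale, with its standard error, adjusted p = 1.6e-10). Tril, a coreceptor of Toll-like receptors, fell at least 31.4-fold from 189, 174 and 176 to values at or under the floor on all 4 arrays. Cdh11, the cadherin of mesenchymal cells, stayed well above the floor and fell 10.8-fold from 904, 923 and 957 to 86.8, 92.5, 78.4 and 86.3 (adjusted p = 4.1e-11). H19, an imprinted noncoding RNA of high signal, fell 13.6-fold from 1007, 1093 and 1165 to 72.5, 69.8, 70.1 and 116. Fam180a fell 17.5-fold, the secreted proteins Fibin 18.7-fold and Olfml2b 10.9-fold, and Txnip, which restrains glucose uptake, 16.3-fold. Agtr2, the type 2 angiotensin receptor, was between 60.3 and 66.4 on untreated arrays and under the floor on all IL-1β arrays (at least 11.2-fold lower). The transcription factor Atoh8 (11.8-fold), the motor protein subunit Dync1i1 (16.2-fold), the cytoskeletal regulator Filip1l (17.1-fold), Fam124a (11.6-fold), the adaptor subunit Ap3s2 (at least 18.5-fold) and Nkain4 (12.97-fold) complete the 20 with Mylk, Car3, Hpgd, Slc40a1 and Vegfd. Ap3s2 was at 110, 109 and 97.7 on untreated and -26.9, 1.53, -36.5 and -233 on IL-1β arrays. On IL-1β replicates a, c and d its signal was far below the 1st percentile of the array (-6.19, -6.17 and -31.0). The bound for Ap3s2 is therefore to be read with caution, and the reason was not tested. The fall of Nkain4 rested in part on replicate d, and its log2 fold change of -3.70 became -3.00 without that array.

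The iron importers Tfrc and Slc11a2 rose and the exporter Slc40a1 fell, while the list as a whole moved in both directions. The transferrin receptor Tfrc had signals of 250.2, 259.9 and 258 on untreated and 687, 612, 621 and 584 on IL-1β arrays and rose 2.44-fold (adjusted p = 5.7e-06). The importer DMT1 (Slc11a2) rose 5.34-fold from 84.8, 77.4 and 74.9 to 364, 412, 497 and 422, and mitoferrin-1 (Slc25a37), which carries iron into mitochondria, rose 12.98-fold from 72.6, 80.95 and 81.1 to 969, 995, 866 and 1264. Lcn2, lipocalin 2, which binds iron-loaded siderophores, was already at 1004, 868 and 929.96 in untreated cultures and rose 4.56-fold to 4346, 3666, 4192 and 4885. Ferroportin (Slc40a1), the only known cellular iron exporter, went the other way, from 299, 279 and 296 to 15.2, 12.7, 24.01 and -6.89. Of 17 iron genes tested, 8 rose and 6 fell. Among 29 metallothionein and zinc or copper genes, 11 rose and 8 fell (5 without IL-1β replicate b or d, and 4, 4 and 3 without untreated replicate a, b and c). The zinc importers Slc39a8 (3.53-fold) and Slc39a14 (2.004-fold), the metalloreductase Steap4 (1.99-fold) and metallothionein 2 (Mt2A, 3.18-fold, from 1046, 953 and 1012 to 2981, 2870.3, 3215 and 3772) rose, while Mt1 had a log2 fold change of 0.69 (adjusted p = 0.21). Without IL-1β replicate d, Mt1 was called higher, with a log2 fold change of 0.96. Mt3 was called 2.08-fold higher and lost its call when IL-1β replicate c or d or any untreated array was left out.

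Many NRF2 targets and antioxidant enzymes rose. Of 45 members, 22 rose and 4 fell, with a median log2 fold change of 0.37. Akr1b8, an aldo-keto reductase, had signals of 105, 122 and 111 untreated and 2761, 2493, 2636 and 2946 with IL-1β, 24.03-fold higher (4.59 ± 0.08 on the log2 scale, with its standard error, adjusted p = 2.2e-11). Sod2, the mitochondrial superoxide dismutase and a known NF-κB target, rose 4.38-fold from 755, 744 and 770.1 to 2899.6, 3065, 3257 and 4167. The groups lay far apart in both. Thioredoxin reductase (Txnrd1, 3.08-fold), the quinone reductase Nqo1 (2.896-fold), sulfiredoxin (Srxn1, 2.75-fold), heme oxygenase (Hmox1, 2.099-fold) and the glutathione-synthesis subunit Gclm (1.65-fold) rose, as did the cystine importer Slc7a11 (4.09-fold). Slc7a11 is counted with the amino acid genes, of which 7 of 39 rose and 11 fell (7 without untreated replicate c). In that list Slc7a2 rose most, the lipoprotein receptor Vldlr (2.53-fold), the glutathione-cleaving enzyme Chac1 (2.49-fold) and the transaminase Gpt2 (2.29-fold) fell, the serine-synthesis enzyme Psat1 fell 1.26-fold, and asparagine synthetase (Asns) had a log2 fold change of -0.18 (adjusted p = 0.23).

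The glucose transporter GLUT1 and hexokinase 2 rose, while as many glycolysis genes fell as rose over the whole list. GLUT1 (Slc2a1) had signals of 290.4, 279.97 and 293 on untreated and 966, 847, 932 and 974 on IL-1β arrays and rose 3.23-fold (1.69 ± 0.06 on the log2 scale, with its standard error, adjusted p = 5.0e-09). Hexokinase 2 (Hk2) rose 3.95-fold from 30.3, 29.96 and 32.1 to 79.8, 106, 160.3 and 162, the lactate carrier Slc16a1 rose 3.52-fold, and the transporter Slc2a6 rose at least 3.45-fold from the floor. Lactate dehydrogenase A (Ldha) was near level at 2250.2, 2451 and 2581 and 2186, 2184, 2183 and 2498 (log2 fold change -0.10, standard error 0.09), with overlapping groups. The muscle enolase Eno3 fell 5.85-fold. In all, 8 of 33 glycolysis genes rose and 8 fell (5 without untreated replicate c), and of 29 genes of pyruvate and the TCA cycle 4 rose and 7 fell. The isocitrate dehydrogenases Idh1 and Idh2 fell, Idh1 2.76-fold from 610.4, 633 and 618 to 273, 228, 197 and 206 and Idh2 1.97-fold, as did the pyruvate dehydrogenase subunit Pdha1 (1.504-fold), while its partner Pdhx rose 2.38-fold. The carrier Slc25a10 was called 1.65-fold higher but lost its call when IL-1β replicate b, c or d or any untreated array was left out.

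Some subunits of the respiratory chain fell by small amounts. Of 64 subunits tested, 18 were lower (9 without untreated replicate b and 11 without c) and 2 higher, the median log2 fold change was -0.17 against 0.09 over all tested genes, and the 5 subunits that fell most were all of complex I. Ndufv2 had signals of 784, 821 and 832 untreated and 482, 539, 609.5 and 569 with IL-1β, 1.48-fold lower (adjusted p = 0.0015). Ndufv3 (1.57-fold), Ndufa2 (1.55-fold), Ndufs3 (1.47-fold) and Ndufa11 (1.47-fold) fell by similar factors. Other subunits were near level, among them Ndufs1 (log2 fold change 0.14, standard error 0.08) and the ATP synthase subunit Atp5f1a (0.02, standard error 0.09). Genes of the hypoxia response were divided, with 8 of 27 higher and 6 lower. Besides Egln3, the transcription factors Epas1 (HIF-2α, 2.13-fold) and Hif1a (1.35-fold) and the peptide adrenomedullin (Adm, 1.96-fold) rose. The carbonic anhydrase Car9, a classic hypoxia marker, fell 4.85-fold from 993, 976 and 1031 to 223, 173, 208 and 226, and Ankrd37 fell 3.26-fold. Bnip3 had a log2 fold change of -0.18 (adjusted p = 0.22). Ddit4 fell 1.29-fold, with a call at the edge of the threshold (adjusted p = 0.0495) that was lost without any 1 of IL-1β replicates a to c or of the untreated arrays.

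Among 36 cholesterol genes, 8 rose and 7 fell. Ch25h, which makes 25-hydroxycholesterol, was under the floor on all untreated arrays and at 273, 269, 231 and 261 on IL-1β arrays, at least 45.1-fold higher (adjusted p = 9.2e-09). Cyp7b1, which hydroxylates oxysterols further, rose 33.9-fold from 15.5, 17.2 and 16.3 to 701, 523, 451 and 563. The sterol exporters Abcg1 (16.01-fold) and Abca1 (1.98-fold), targets of the oxysterol receptor LXR, rose too, as did Insig1 (3.93-fold), which holds back sterol synthesis, and Srebf1 fell 2.86-fold. Among 53 fatty acid genes, 11 rose and 11 fell (7 without untreated replicate a). The lipase inhibitor Angptl4 (2.97-fold), the fatty acid carrier Fabp5 (2.73-fold, from 960.5, 1119 and 1044 to 2854, 2557, 3057 and 2921), the carnitine acyltransferase Cpt1a (2.01-fold) and the lipid droplet protein Plin2 (1.93-fold) rose. The desaturase Fads2 (at least 5.39-fold) and the β-oxidation enzyme Hadh (2.64-fold) fell. Fatty acid synthase (Fasn) had a log2 fold change of -0.08 (standard error 0.09) and lipoprotein lipase (Lpl) of -0.43 (adjusted p = 0.36).

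Of 40 acute-phase, complement and coagulation genes, 13 rose and 1 fell. Tfpi2, an inhibitor of plasmin and tissue factor, had signals of 51, 49.7 and 46.3 on untreated and 1260.2, 1027, 954 and 1271 on IL-1β arrays, 22.9-fold higher (4.51 ± 0.13 on the log2 scale, with its standard error, adjusted p = 6.6e-10). Tissue plasminogen activator (Plat) rose 8.46-fold from 416, 425 and 443 to 3399, 3229, 3362 and 4655, the urokinase receptor Plaur 6.99-fold and the plasminogen activator inhibitor Serpinb2 12.2-fold. The acute-phase protein Saa3 rose 10.7-fold, tissue factor (F3) 2.65-fold, complement C3 3.39-fold and the C1 inhibitor Serping1 1.51-fold. Haptoglobin (Hp) and A2m, which the liver makes in the acute phase, had log2 fold changes of 0.78 (adjusted p = 0.57) and -0.17 (adjusted p = 0.60), and Hp was at 87.3, 54.6, 59.5 and -118 on the 4 IL-1β arrays. Without replicate d, its lowest array, Hp was called higher, with a log2 fold change of 1.66.

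Many antigen presentation genes rose modestly, and interferon-responsive genes did not move as 1 group. Of 24 genes of antigen presentation and the immunoproteasome, 12 rose and 1 fell. Nlrc5, the transactivator of class I genes, rose 5.92-fold from signals near the floor to 70.1, 43.1, 39.4 and 30.97. The immunoproteasome subunits Psmb9 (2.16-fold) and Psmb8 (2.17-fold), the peptide transporter Tap1 (1.72-fold) and the class I light chain B2m (1.37-fold, from 1914, 1977 and 2035 to 2727, 2523, 2726 and 2820.1) rose. RT1-Ba (5.22-fold higher) lost its call without untreated replicate b, and RT1-CE5 (2.28-fold higher) without IL-1β replicate a or d or any untreated array, and both were highest on replicate d. Of the standard proteasome, 6 of 32 subunits rose and none fell, led by Psmd1 (1.62-fold), Psma6 (1.52-fold), Psmd12 (1.45-fold) and Psmd11 (1.43-fold), and Psmb5 had a log2 fold change of 0.07 (adjusted p = 0.65). Of 49 interferon-responsive genes, 8 rose and 5 fell. The chemokine Cxcl11, which is also counted with the cytokines set aside, rose at least 19.2-fold from the floor and Cxcl10 6.97-fold. The factors Irf5 (3.54-fold) and Irf1 (2.28-fold, not called without untreated replicate c) rose. Ifit2 fell 3.61-fold from 178, 197 and 185 to 58.1, 51.1, 49.8 and 48.1, Irf7 was 1.602-fold lower (not called without any 1 untreated array), and Gbp2 had a log2 fold change of 0.50 (adjusted p = 0.13).

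Many contractile genes fell. Of 49 smooth-muscle-type contractile, SRF target and focal adhesion genes, 22 were lower, 15 of them at least 2-fold, and 4 were higher, with a median log2 fold change of -0.22. Myosin light chain kinase (Mylk) had signals of 157, 159 and 159 untreated and 8.29, 9.55, 8.9 and 4.38 with IL-1β, 19.9-fold lower (adjusted p = 2.4e-07). Its substrate's family member Myl9 fell 4.27-fold from 370.4, 351 and 338 to 77.6, 84.8, 96.4 and 73.5, and smoothelin (Smtn) 4.31-fold from 496, 489.9 and 487 to 113, 92.5, 170.2 and 94.9. No IL-1β array reached the lowest untreated array for any of these. Cavin2 (at least 9.88-fold), Lmod1 (at least 4.44-fold), Ankrd1 (4.398-fold), calponin (Cnn1, 3.38-fold), transgelin (Tagln, 2.22-fold) and smooth muscle actin (Acta2, 1.87-fold) fell as well. Tropomyosin 1 (Tpm1) and Ccn2 were near level by their representative probe sets, with overlapping groups. Their log2 fold changes were -0.14 and 0.04 (standard errors 0.13 and 0.12). Another probe set of Tpm1 was called lower at -0.88, and the rest were not called. Ccn2 had high signals of 3314, 3646 and 3841 untreated and 3463, 3234, 3586 and 4623 with IL-1β. Its log2 fold change was -0.19 with quantile normalization.

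Adhesion genes were exchanged, with 16 of 47 higher and 11 lower. The integrin subunits Itga3 (17.7-fold), Itgb3 (8.19-fold), Itgb2 (at least 5.97-fold) and the fibronectin receptor subunit Itga5 (4.17-fold) rose. Itga3 had signals of 17.8, 10.96 and 11.8 on untreated and 266, 191, 354 and 164 on IL-1β arrays. The hyaluronan receptor Cd44 rose 4.82-fold from 346, 335 and 334 to 1398, 1505, 1884 and 1772, Icam1 2.304-fold and syndecan 4 (Sdc4) 2.19-fold. The common β1 subunit Itgb1 had a log2 fold change of 0.12 (standard error 0.09) at signals between 1662 and 2216. Vcam1 was 1.72-fold lower, a call that was lost when IL-1β replicate a or c or any untreated array was left out.

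Members of the TGF-β family changed in both directions, 20 of 51 higher and 15 lower. Among the ligands, activin A (Inhba) had signals of 232, 241 and 245 untreated and 3054, 2964, 2984 and 4213 with IL-1β, 13.6-fold higher (3.77 ± 0.17 on the log2 scale, with its standard error, adjusted p = 2.5e-08). The bone morphogenetic proteins Bmp7 (at least 13.3-fold), Bmp2 (8.78-fold, from 43.4, 39.97 and 44.8 to 414, 372, 347 and 369) and Bmp6 (7.14-fold) rose. Bmp4 fell 3.37-fold from 492, 492 and 501 to 168, 143, 156 and 124, and Tgfb2 fell 3.31-fold from 1315, 1395 and 1508 to 490.01, 381, 466 and 369.7. The groups did not overlap for any of these ligands. The BMP antagonist gremlin 1 (Grem1) rose 4.69-fold, from 457, 467 and 457 to 1995, 2059, 1972 and 2673. The BMP target Id1 fell 3.096-fold and the inhibitory Smad6 2.29-fold, while Smad3 had a log2 fold change of -0.08 (standard error 0.11).

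Of 67 genes of the FGF, VEGF, EGF, PDGF and IGF systems, 22 rose and 12 fell. Among ligands, Fgf9 rose 18.6-fold from 28.9, 29.6 and 26.5 to 658, 632, 401 and 460.3, epiregulin (Ereg) 11.6-fold, angiopoietin 1 (Angpt1) 4.91-fold and Vegfa 4.44-fold from 187, 173 and 191 to 878, 801, 863 and 732. Igf1 went from 25.2, 23.8 and 23.5 to values under the floor on all IL-1β arrays, at least 4.23-fold lower. Fgf2 and Hbegf had log2 fold changes of -0.15 (adjusted p = 0.87) and 0.42 (adjusted p = 0.15). Among receptors, the hepatocyte growth factor receptor Met rose 7.03-fold and Pdgfra 1.73-fold, Pdgfrb fell 2.35-fold from 471, 460.1 and 495 to 124, 171, 294 and 267, and Egfr and Fgfr1 had log2 fold changes of -0.36 and -0.26 (adjusted p = 0.43 and 0.21). The other probe sets of Egfr were at -0.75, called lower, and 0.04, not called. The proteins that bind IGFs diverged: Igfbp5 rose 4.23-fold from 179, 167 and 177 to 744, 687, 745 and 774 and Igfbp3 3.06-fold. Igfbp4 fell 9.87-fold, with a log2 fold change of -3.30 that became -2.70 without IL-1β replicate d.

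Of 61 Wnt, Hedgehog and Notch genes, 12 fell and 6 rose (3 without untreated replicate a or c). The Wnt receptor Fzd2 fell 4.14-fold from 454, 437 and 439 to 87.8, 96.2, 143 and 109, and the Notch ligand Jag1 fell 3.46-fold from 130.1, 136 and 156 to 31.9, 39.5, 37.3 and 57.6. Gli2, a transcription factor of Hedgehog signaling (at least 7.46-fold), the R-spondin receptor Lgr5 (5.87-fold), the Notch target Hey2 (5.24-fold) and the secreted Wnt antagonists Dkk3 (2.399-fold) and Frzb (2.32-fold) fell. For Dkk3, the mean over all its probe sets had a log2 fold change of -0.07, which was not called. Nkd1 was called higher (at least 4.87-fold) but lost its call without IL-1β replicate d or any 1 untreated array. Wnt5a (-0.39), Notch1 (0.49) and Hes1 (0.20) had log2 fold changes that were not called, and the target genes Axin2 and Gli1 were at or near the floor on all arrays except IL-1β replicate d (17.2 and 23.1).

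Of 52 transcription factors of the skeleton and of positional identity, 20 fell and 11 rose. Hoxa9 had signals of 534, 589.6 and 637 on untreated and 125, 114, 111 and 136 on IL-1β arrays, 4.83-fold lower (adjusted p = 4.4e-08). Dlx5 fell 6.602-fold and Erg 4.19-fold, while Twist2 (at least 4.34-fold) and Nfatc2 (3.73-fold) rose from the floor. Runx1 had a log2 fold change of 0.42 (adjusted p = 0.21). Of 43 Kruppel-like, circadian and steroid receptor factors, 11 rose and 12 fell. Npas2, a partner of the clock protein BMAL1, rose 8.57-fold from 50.1, 46.1 and 54.03 to 476, 346, 429.9 and 475, the clock repressors Nr1d1 2.75-fold and Bhlhe41 1.798-fold, and Klf15 2.94-fold. Klf2 fell 5.57-fold from 144, 133 and 129 to 25.4, 27.3, 24.5 and 20.5, the vitamin D receptor Vdr 2.902-fold and Nfil3 1.71-fold. Hlf was 3.85-fold lower but lost its call when IL-1β replicate b or c or any untreated array was left out. Klf9 rose 1.41-fold, whereas Klf4 had a log2 fold change of 0.22 (adjusted p = 0.16) and Per3 of -0.61 (adjusted p = 0.47). The enzyme Hsd11b1, which regenerates active glucocorticoid inside cells, rose 1.99-fold from 978, 1002 and 1021 to 2229, 1888, 1884 and 1967, and the glucocorticoid receptor Nr3c1 had a log2 fold change of -0.12 (standard error 0.19).

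The enzyme that degrades retinoic acid and 1 that makes it both rose. The first, Cyp26b1, rose 19.04-fold from 33.5, 23.8 and 31.6 to 584, 600.3, 499 and 552 (adjusted p = 3.8e-08), and the second, Aldh1a3, rose at least 7.41-fold from the floor. The retinoic acid carrier Crabp2 (3.54-fold), the retinol dehydrogenase Rdh10 (1.81-fold) and the monoamine oxidase Maob (4.06-fold) fell. The xenobiotic enzyme Cyp1b1 rose 1.87-fold, whereas Dio2 was under the floor on all untreated and IL-1β arrays. Of 42 retinoid, steroid and xenobiotic genes, 7 rose and 9 fell. Of 44 axon guidance genes, 10 rose and 12 fell. Netrin 1 (Ntn1) rose 8.05-fold from 86.9, 98.05 and 97.5 to 823, 676, 885 and 666, the semaphorin receptor Plxnd1 4.55-fold and Sema5a 3.26-fold. The semaphorins Sema3a (at least 6.93-fold) and Sema3d (4.48-fold) and the ephrin Efna4 (3.89-fold) fell. Slit2 was 1.78-fold higher but lost its call in 6 of the fits without 1 array.

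Of 63 genes of G-protein-coupled receptors, RGS proteins and cAMP, 13 rose and 12 fell. The adenosine receptor Adora2b had signals of 17.6, 20.4 and 17.5 untreated and 177, 163, 141 and 110.2 with IL-1β, 7.89-fold higher (adjusted p = 4.9e-07), and Adora2a rose at least 10.2-fold from the floor. The ATP receptor P2ry2 rose 9.12-fold from 23.5, 23.4 and 23.9 to 201, 216, 244 and 201. Pde4b, which breaks down the cAMP that these adenosine receptors raise, rose 5.23-fold, and Rgs16, which speeds the turn-off of G proteins, at least 6.75-fold. Rgs2 (3.48-fold), the adrenergic receptor Adra1b (at least 6.98-fold) and the parathyroid hormone receptor Pth1r (2.49-fold) fell with Agtr2, the bradykinin receptor Bdkrb1 had a log2 fold change of 1.45 (adjusted p = 0.085), and Rgs4 was at the floor. Among 63 ion channels, pumps and carbonic anhydrases, 12 rose and 14 fell. The phosphate importer Slc20a1 rose 8.04-fold from 485, 521 and 509 to 4096, 3554, 3830.2 and 4862. Car4 rose at least 9.75-fold from the floor, and the potassium channel Kcnma1 (5.84-fold) and aquaporin 1 (Aqp1, 2.22-fold) fell with Car9 and Car3. The gap junction protein Gja1 had a log2 fold change of -0.07 (standard error 0.12), the mechanosensitive channel Trpv4 of -0.79 (adjusted p = 0.053) and Car2 of 0.93 (adjusted p = 0.43). The other probe sets of Gja1 were at -2.37, called lower, and 0.12, not called.

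Many genes of the early secretory pathway fell, most by less than 2-fold. Of 44 genes of ER translocation and vesicle transport, 21 were lower and 1 higher, with a median log2 fold change of -0.26, and with quantile normalization 33 were lower. The KDEL receptor Kdelr3, which returns proteins to the ER, had signals of 842, 946 and 908 on untreated and 451, 424, 411 and 369 on IL-1β arrays, 2.17-fold lower (-1.12 ± 0.10 on the log2 scale, with its standard error, adjusted p = 3.8e-06). The coat subunits Copz2 (2.01-fold) and Sec24d (1.66-fold), the cargo receptor Tmed10 (1.71-fold), the translocon subunit Sec61b (1.67-fold) and Kdelr2 (1.48-fold) fell, and Sec61a1 had a log2 fold change of -0.26 (adjusted p = 0.16). The unfolded protein response did not fall with them, with 10 of 33 members higher and 5 lower. The eIF2α phosphatase subunit Ppp1r15a (3.29-fold), Crebrf (2.42-fold), the oxidase Ero1a (1.604-fold), Sdf2l1 (1.56-fold) and the chaperone BiP (Hspa5, 1.403-fold, from 2137, 2362 and 2439.7 to 3300.2, 2989.5, 3016 and 3703) rose. Creb3l1, a factor for collagen secretion, fell 2.93-fold from 338, 360.2 and 365 to 132, 109, 118 and 126, and Ddit3 and Xbp1 had log2 fold changes of -0.34 (adjusted p = 0.34) and 0.08 (adjusted p = 0.52).

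Enzymes of glycosaminoglycan synthesis were lower in 16 and higher in 10 of 44. Among the enzymes of the sugar precursors, Gfpt2, which commits glucose to hexosamines, had signals of 96, 89.1 and 89.9 untreated and 1208, 1229, 1091 and 1452 with IL-1β, 13.5-fold higher (3.76 ± 0.11 on the log2 scale, with its standard error, adjusted p = 9.9e-10), and UDP-glucose dehydrogenase (Ugdh) rose 2.56-fold from 699.6, 722 and 714 to 1936, 1796, 1672 and 1904. Ugp2 was 1.28-fold higher, which was not called without untreated replicate a or b. The chain-building enzyme Chsy3 (6.15-fold) and the sulfatase Sulf1 (2.55-fold) rose, and the sulfate donor synthase Papss2 (1.58-fold) and the hyaluronan-degrading Cemip (2.39-fold) fell. Hyaluronan synthase Has2 (-0.39, adjusted p = 0.43), Xylt1 (0.95, adjusted p = 0.12), Chst11 (0.56, adjusted p = 0.59) and the sulfate carrier Slc26a2 (-0.48, adjusted p = 0.063) had log2 fold changes that were not called.

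Genes of ribosome biogenesis rose, 19 of 47 (12 without untreated replicate b) with none lower, whereas of 42 ribosomal proteins 1 was called, Rps13 (2.81-fold higher, at signals of 18.7, 11.9, 12.1 and 29.8 with IL-1β). Rrp9, an rRNA processing factor, rose most, 13.1-fold from 12.9, 7.32 and 8.86 to 91.2, 90.4, 126 and 224. The RNA polymerase I subunits Polr1a (2.02-fold) and Polr1b (1.803-fold), Nop2 (1.64-fold, from 129.96, 137 and 134 to 211, 218, 213 and 238) and Utp15 (1.504-fold) followed. Fibrillarin (Fbl, 1.15-fold) and nucleolin (Ncl, 1.21-fold) were called with smaller changes and lost their calls when any 1 untreated array was left out, Ncl also without IL-1β replicate b, c or d. Of 40 cell death genes, 11 rose and 8 fell (5 without untreated replicate b). The survival factor Bcl2a1 rose 10.3-fold from 19.9, 15.7 and 19.2 to 207, 185, 159 and 204, the TNF receptor Tnfrsf1b at least 7.01-fold from the floor, the proapoptotic Bid 6.69-fold from 50.2, 58.3 and 51.2 to 391, 371, 343 and 319.9 and the caspase-8 inhibitor Cflar 2.84-fold. The proapoptotic Bcl2l11 was called in opposite directions by its probe sets, 1.52-fold higher by the brightest and at -0.90 on the log2 scale by another. Casp12 fell 2.98-fold, Bcl2 had a log2 fold change of 0.98 (adjusted p = 0.38), and Casp1, called 2.02-fold higher with overlapping groups, lost its call in 5 of the fits without 1 array (IL-1β a, b or c, or untreated a or b). Of 29 cytosolic heat shock proteins, 10 rose (6 without untreated replicate a) and 6 fell. Hsph1 rose 2.64-fold, and αB-crystallin (Cryab, 6.14-fold, from 374, 371 and 373 to 64.97, 74.2, 60.01 and 46.9), Hspa1a (1.93-fold) and Hspb1 (1.75-fold) fell. Hspb6 fell too (5.91-fold), with a log2 fold change of -2.56 that was -1.74 without IL-1β replicate d and with a call that was lost without any 1 untreated array.

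Lysosomal, autophagy and chromatin genes moved in both directions, as did all tested genes, of which 15.5% were higher and 15.3% lower. The shares higher and lower were 17.4% and 26.1% of lysosomal, 26.1% and 13.04% of autophagy and 8.89% and 20% of chromatin genes. Of 46 lysosomal genes, 8 rose (5 without any 1 untreated array) and 12 fell, among them the proton pump subunit Atp6v1b2 (2.35-fold higher), the lipid transfer protein Gm2a (1.82-fold lower) and β-glucuronidase (Gusb, 1.79-fold lower). Of 46 autophagy and mTOR genes, 12 rose and 6 fell. The mTOR inhibitor Deptor fell 6.81-fold from 122, 108 and 118 to 21.1, 16.6, 11.5 and 20.9, and Sesn3 was 3.86-fold lower. Of 45 chromatin genes, 4 rose and 9 fell (5 without untreated replicate c), with Hmga1 16.2-fold higher, Smarca2 2.42-fold lower and the DNA demethylase Tet2 1.901-fold lower.

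Few genes of mitosis changed with IL-1β, and somewhat more of DNA replication. Of 47 genes of mitosis and chromosome segregation, 2 were higher and 4 lower, and the median log2 fold change was 0.03. The proliferation antigen Mki67 had signals of 229, 253 and 219 on untreated and 238, 304, 238 and 298 on IL-1β arrays, and the mitotic kinase Cdk1 445, 446 and 441 and 445, 564, 498 and 536. The groups overlapped for both, and their log2 fold changes were 0.20 (standard error 0.17) and 0.20 (standard error 0.17). Ccnb1 (-0.20), Birc5 (-0.14) and Top2a (0.50) were not called either. The falls were of less than 2-fold, those of Kif20a (1.64-fold, not called without untreated replicate b), Cdca3 (1.54-fold), Ccnb2 (1.48-fold) and Cdc20 (1.53-fold, not called without IL-1β replicate a, c or d or any 1 untreated array). Mad2l1 rose 1.696-fold, a call that was lost without any 1 untreated array. Of 44 DNA replication genes, 10 rose (6 without untreated replicate b or c) and none fell. The licensing factor Cdt1 rose 3.21-fold from 44.8, 50.5 and 53.1 to 146, 187, 141 and 164 (adjusted p = 1.1e-05), Mcm3 1.53-fold and the sliding clamp Pcna 1.37-fold from 764, 751 and 784 to 1120.5, 1075, 966 and 1035. The calls of Mcm10 (1.85-fold), Orc1 (1.78-fold) and Pold1 (1.56-fold) were each lost in 5 of the 7 fits without 1 array, and Mcm2 had a log2 fold change of 0.22 (adjusted p = 0.52).

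Regulators of the G1 phase moved in both directions, 9 of 30 higher and 9 lower. Cyclin D1 (Ccnd1) rose 2.34-fold from 633, 728 and 708 to 1634, 1504, 1513 and 1812 (adjusted p = 6.3e-05). The CDK inhibitors p27 (Cdkn1b) and p57 (Cdkn1c) fell, Cdkn1b 2.53-fold from 626, 547 and 627 to 208, 244, 251 and 246 and Cdkn1c 2.904-fold. The p53 targets were divided: Gadd45a (2.03-fold), Mdm2 (1.82-fold) and the kinase Plk3 (2.41-fold, not called without untreated replicate b) rose, Sesn1 (2.56-fold) fell, and p21 (Cdkn1a) had a log2 fold change of 0.13 (standard error 0.15). Gadd45g fell 3.39-fold.

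**Figure D5:**
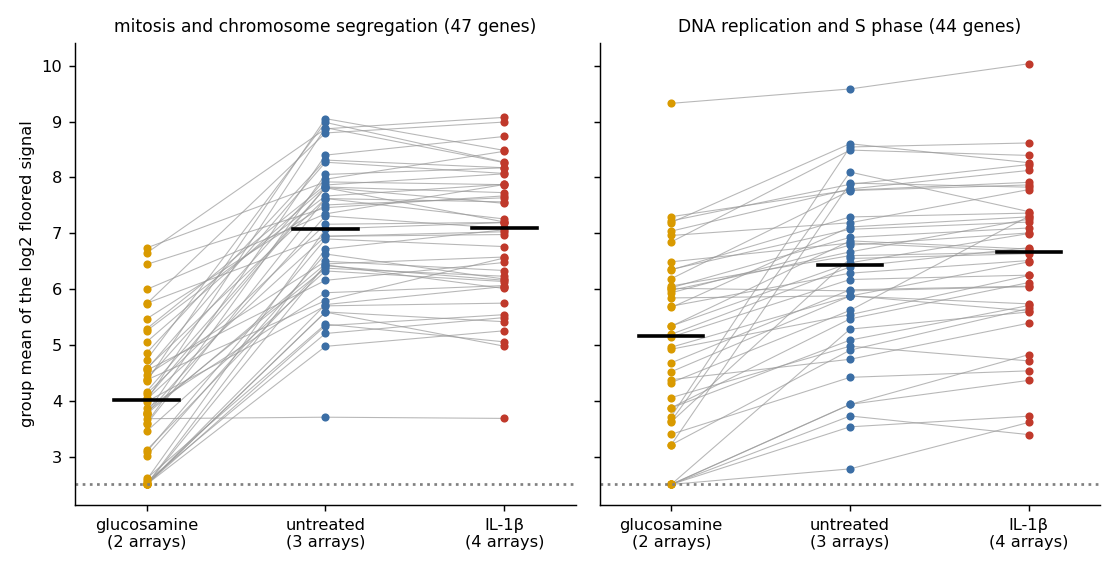
Group means of the log2 floored signal of each tested gene of mitosis (left, 47 genes) and DNA replication (right, 44 genes) in glucosamine, untreated and IL-1β cultures, with lines joining the same gene and black bars at the median. Most mitosis genes lie near the same level in untreated and IL-1β cultures and lower with glucosamine alone.

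A direct comparison with cultures in glucosamine alone showed where the profile of IL-1β cultures differed from that of the other single treatment, although these cultures had their agent for 20 rather than 14 hours and had 2 arrays. It called 3896 of 13748 genes, 1819 higher (13.2%) and 2077 lower (15.1%) in IL-1β cultures. Without glucosamine replicate a it called 2539 genes and without b 2449. Of the 47 mitosis genes, 46 were higher with IL-1β than with glucosamine and none lower, with a median log2 difference of 2.97. Mki67, for example, was at 41.1 and 37.5 on the glucosamine arrays, and Cdk1 at 73.5 and 38.9. Of 44 DNA replication genes, 36 were higher. The unfolded protein response was lower with IL-1β in 24 of 33 and higher in 2.

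Among the genes with the largest changes over untreated cultures, those that differed most from glucosamine alone were Ptges, Nefh, Cyp7b1, Txnip and the arginine-synthesis enzyme Ass1. Ptges was at 82.01 and 11.9 on the 2 glucosamine arrays, 122-fold below IL-1β cultures (log2 difference 6.94, standard error 0.52, adjusted p = 2.1e-06). Cyp7b1 was at 10.7 and 5.08 with glucosamine, 70.6-fold below IL-1β cultures, and Txnip at 2203 and 1996, 64.9-fold above. Ass1 was at 33.7 and 5.11, 162-fold below, and Nefh was under the floor on both glucosamine arrays, at least 52.7-fold below. Other genes that had changed over untreated cultures differed less between the single treatments. Ddit4l was at 518 and 490.1 with glucosamine and 425, 378, 371 and 373 with IL-1β (log2 difference -0.38, standard error 0.12), Atf3 at 338 and 280.4 and 256, 327, 228 and 399.8 (-0.06, standard error 0.20), Serpinb2 at 198 and 158 and 221, 185, 172 and 166 (0.06, standard error 0.15) and Itga3 at 197 and 300.5 and 266, 191, 354 and 164 (-0.06, standard error 0.42). The fall of H19 was likewise seen at 99.98 and 119 with glucosamine (-0.44, standard error 0.28), and Agtr2, under the floor on all IL-1β arrays, was at 6.36 and 8.76 with glucosamine. Of those with a difference given, Ddit4l was called lower with IL-1β (adjusted p = 0.048).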

How the data were processed

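RNA of 13 cultures was hybridised to Rat Genome 230 2.0 arrays, 1 culture an array. The authors deposited linear signal intensities, for which the labels name MAS5 (version 5). The study's methods credit the scan files to Microarray Suite and the expression estimates, with global scaling, to Probe Profiler. Intensities below 0 occur, which a MAS5 signal does not take, and the values were taken as deposited, with no further normalization. Of 31099 probe sets, 57 controls were left out. Intensities under the 25th percentile of all values (5.71) were set to it, and log2 of the deposited values was tested. Probe sets above the floor on at least 1 array were kept (29263), and 1779 were at the floor on every array.

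The platform annotation gave 1 gene for 20826 probe sets, several for 436 and none for 9780. Symbols were updated through Entrez identifiers (20758), or accessions (2), and 66 were kept. All 13 arrays in 4 groups were fitted with limma 3.58.1 in R 4.3.3 (9 residual degrees of freedom), with a variance trend, moderated standard errors and Benjamini-Hochberg adjustment over all tested probe sets. The fit was tested on simulated data. The number of arrays limits the precision.

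The groups come from the sample titles. The members of the comparison and the 44 process lists, 3 lists set aside and 6 marker lists were chosen with earlier results of these data and the paper known. Genes were picked by rule: the 20 largest rises and 20 largest falls among called genes whose groups did not overlap and that were on none of the lists set aside, up to 5 called members of each process list with the largest change, preset key members of a list whether called or not, and the 5 of the first set that differed most from glucosamine alone. The text leaves some of the picked genes unnamed, called ones among them. Called genes numbered 4191 without overlap between groups, and 43.2% of all tested genes had groups that did not overlap. A gene is represented by its probe set of highest mean signal. Of 400 genes picked by the rule, 143 had 209 other tested probe sets, of which 82 differed in call from the representative and 1 was called in the opposite direction (Bcl2l11). The markers Col2a1, Ptprc, Itgam, Csf1r and Cd14 were named for the check of the label.

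The alternatives tried were a floor at the 10th or the 40th percentile, quantile normalization, scaling to a common 75th percentile, and a filter of at least 3 arrays or none. Others were the 7 arrays alone, no variance trend, array quality weights, the replicate letter as a block, and the mean over all probe sets of a gene. Each IL-1β, untreated and glucosamine array was left out in turn, and so were both d arrays. The methods' analysis of variance with a Tukey test was run on the deposited linear signals, without floor or log2.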

Additional observations from a re-analysis of the deposited data

Results flagged for a closer look

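On 31 of the 365 genes named in the text, 1 of the 4 IL-1β arrays lay apart from the other 3 by more than Dixon's 95% criterion allows, on the log2 scale with the floor. Chance alone gives about 1 such gap in 20 groups. This rate does not apply to 7 of the 31 genes (Efna4, Erg, Filip1l, Gli1, Lgr5, Plppr5 and Slc26a2), whose other 3 arrays were all at or under the floor, so that flooring alone set the gap. In 17 of the 31 genes the array that lay apart was replicate d, the array with the wider spread at low signals. In each case the signal of that array is given first and the range of the other 3 after it.

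Replicate d was above the others for Csf1r (30.6 against 1.63 to 6.70), Gli1 (23.1 against -1.40 to 2.19), Grem1 (2673 against 1972 to 2059), H19 (116 against 69.8 to 72.5), Igf2bp2 (136 against 122 to 123), Inhba (4213 against 2964 to 3054), Ldha (2498 against 2183 to 2186), Lgr5 (10.7 against -2.03 to 4.60), Mcm10 (45.9 against 23.1 to 25.2), Plat (4655 against 3229 to 3399), Rem2 (326 against 109 to 128), Rgs2 (14.6 against 3.89 to 6.38). It was below them for Hadh (85.9 against 102 to 105), Hspb6 (3.71 against 48.9 to 64.7), Maob (-12.9 against 15.6 to 17.3), Ndufv3 (205 against 249 to 255), Nkain4 (5.94 against 34.6 to 45.7).

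Replicate a lay apart for Cdkn1b (208 against 244 to 251), Ddit4l (425 against 371 to 378), Erg (6.57 against -4.46 to 2.58), Gm2a (461 against 325 to 345), Ndufa11 (378 against 541 to 582), Sulf1 (404 against 526 to 550.1). Replicate b lay apart for Dlx5 (12.9 against 11.03 to 11.3), Efna4 (6.55 against 0.27 to 2.62), Filip1l (6.37 against -6.62 to 3.82), Slc26a2 (5.96 against -13.7 to 2.53). Replicate c lay apart for Dusp10 (57.3 against 30.6 to 31.8), Nfkb2 (410.0 against 324 to 337), Plppr5 (6.34 against 1.59 to 5.56), Trpv4 (19.8 against 11.8 to 12.7).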

How the results depend on the processing

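The number of probe sets called between IL-1β and untreated cultures lay within 1.5 times of 7067 under all alternatives run except array quality weights (12067 called, 5708 higher and 6359 lower, and 6738 genes) and the methods' analysis of variance with its Tukey test (2816 called, 1141 higher and 1675 lower). Against glucosamine alone the same alternatives called 11020 (5247 and 5773, and 6202 genes) and 2797 (1360 and 1437), and leaving out both d arrays gave 4568 higher. Leaving out 1 array gave 5378 to 7006 calls against untreated cultures, 2501 to 3269 higher, 2877 to 3837 lower and 3294 to 4192 genes, and against glucosamine alone 3820 to 6542, 1836 to 3074 higher, 1984 to 3528 lower and 2449 to 3942 genes. What the replicate letters mark is not given in the sources used here. Same-letter deviations of the arrays a to c correlated at -0.17, 0.20 and -0.11 over 18796 probe sets, and those of IL-1β replicate a and untreated replicate b at 0.25. The arrays lettered d, of IL-1β with and without glucosamine, stood apart from the rest (1st percentile of their signals -36.8 and -31.0), and without both 9701 probe sets were called. The fit with the replicate block called 8882 probe sets (4305 higher and 4577 lower) and 5145 genes, and 7870 against glucosamine alone. Of the genes named in the text and called, 264 of 306 kept the call under the 19 alternatives judged gene by gene. The methods' analysis of variance with its Tukey test was not judged for single genes. Some genes that were not called changed sign, on the log2 scale. Ccn2 was at -0.19 with quantile normalization, -0.12 with quality weights, -0.033 with the replicate block, -0.070 without both d arrays and -0.070 to 0.10 with 1 array left out. Nr3c1 was at 0.042 with quality weights, 0.044 with the replicate block, 0.038 without both d arrays, 0.037 with the mean over probe sets and -0.19 to 0.038 with 1 array left out. Atp5f1a was at -0.036 with quantile normalization and -0.021 to 0.050 with 1 array left out, Fgf2 at -0.55 to 0.031 with 1 left out, Itgb1 at -0.028 with quantile normalization and -0.025 with the mean over probe sets, and Top2a at -0.078 with that mean. Over the alternatives, the counts of ER transport genes lower (15 to 33), respiratory subunits lower (9 to 29), ribosome biogenesis genes higher (12 to 33), DNA replication genes higher (6 to 20) and mitosis genes higher (1 to 10) moved by over 1.5 times, while those of NF-κB genes higher (28 to 35) and NRF2 targets higher (21 to 24) did not. The causes were not tested. Signals near the floor limit the values, since only bounds are known there.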
